A study of Mus musculus with 30 samples.

Results

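RAD21 peak lists from embryonic trunks carrying Del(CBS1-2) were set against those carrying Del(CBS1), the step in a series of Hoxd alleles that adds a mutation of CTCF binding site 2 (CBS2) to one of CBS1. The 5 lists were chosen by their labels, 2 for Del(CBS1-2) and 3 for Del(CBS1), out of 16 RAD21 lists and 30 lists in all. The single RAD21 list of Del(CBS2), which by its label carries the CBS2 mutation alone, stands beside them as a description, with no replicate and no test. In these names a range stands for every site it spans, so Del(CBS1-2) carries mutations of CBS1 and CBS2. The mice were B6CBAF1, the tissue was the trunk at E10.5, and per the labels homozygous embryos from crosses of trans-heterozygous parents were dissociated one by one. RAD21 was mapped by ChIPmentation, a chromatin immunoprecipitation in which Tn5 transposase adds the sequencing adapters while the chromatin is on the beads. The labels do not say how many founder lines an allele had. Peak positions do not measure expression, so the tissue label could not be checked against marker genes here.

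RAD21 is the kleisin subunit that closes the ring of cohesin, the complex that extrudes chromatin loops. CTCF, a zinc-finger protein, halts cohesin when it meets the protein in the right orientation, so that RAD21 peaks over bound CTCF sites mark loop anchors. In the Hoxd cluster, an array of homeobox genes between a centromeric and a telomeric regulatory landscape, CTCF sites lie among the genes and are known to take part in the order in which the genes are switched on along the trunk axis.

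The strong RAD21 peak that Del(CBS1) trunks had at CBS2 was missing from one Del(CBS1-2) list and weak in the other, while the neighbouring peak at CBS4 was kept. As a description, no other RAD21 position found in all 3 Del(CBS1) lists lost as much rank as CBS2, though another came close. Elsewhere in the Hoxd cluster the differences were small or rested on weak peaks, except at a position within the wide peak near Hoxd13, where the lists split the signal into different summits. Over the genome, few sites changed beyond the spread between libraries, and the libraries also differed, within some genotypes too, in their peaks at tRNA genes.

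That feature and the list lengths come before the results, since they touch several of them. The Del(CBS1-2) lists held 38097 and 38642 peaks and the Del(CBS1) lists 17996, 38398 and 33172, against 48024 in the Del(CBS2) list (standard chromosomes). Del(CBS1) replicate 1 was therefore short. RAD21 peaks lay over 265 and 264 of 408 tRNA genes in the Del(CBS1-2) lists, over 192, 20 and 15 in the Del(CBS1) lists, and over 182 in the Del(CBS2) list. The Del(CBS1-3) lists had 270 and 12 and the WT lists 215, 260, 264 and 18, so the split lay within those genotypes as well. It did not lie within the 2 other alleles, whose lists were all low: 19 and 30 for Del(CBS1-4), and 6 and 6 for Del(CBS1-5). Both Del(CBS1-2) libraries were thus in the class with many tRNA gene peaks, and 2 of the 3 Del(CBS1) libraries were in the other. Values without the libraries with few such peaks, which leave a single Del(CBS1) list, stand beside several results. Limma fits with the class of tRNA gene peaks as a factor stand beside the rank changes. The part of this split in the results was otherwise not tested. No read depth stands behind the lists, so a missing peak means that none was called.

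**Figure D1:**
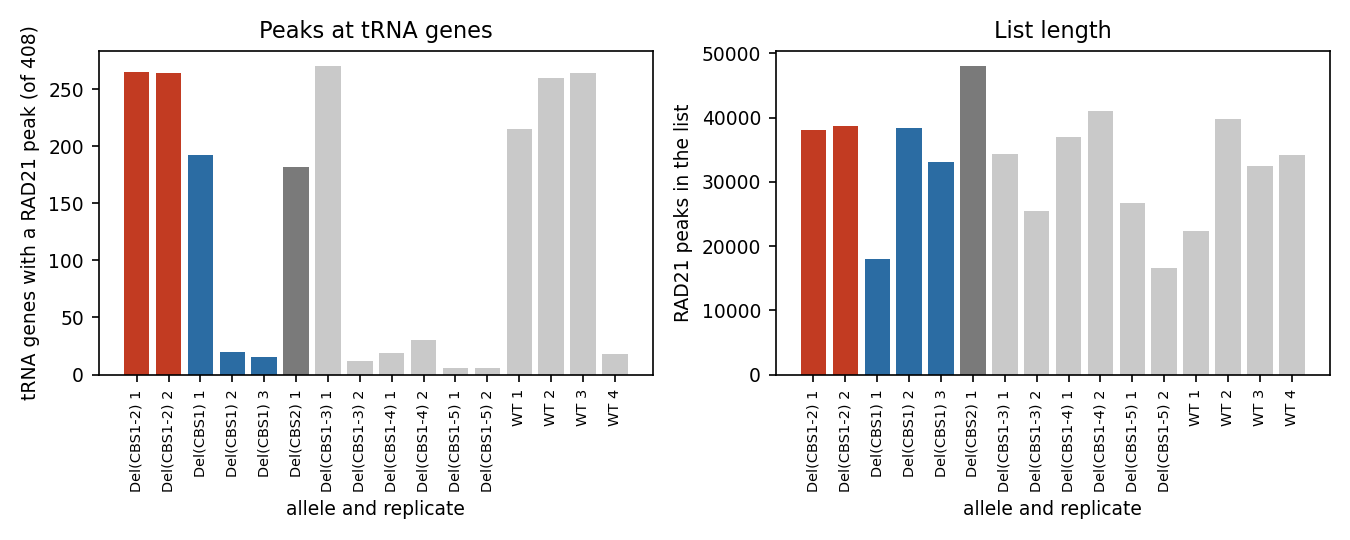
RAD21 peaks at 408 tRNA genes (left) and peaks per list (right) for each of the 16 RAD21 libraries, 1 bar per library, with Del(CBS1-2) in red, Del(CBS1) in blue, Del(CBS2) in dark grey and the other alleles and WT in light grey. Both Del(CBS1-2) bars stand at 265 and 264 tRNA genes, whereas the Del(CBS1) bars stand at 192, 20 and 15.

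Positions were taken on the mm10 build, chromosome 2, and are counted from 1. The CBS were placed from the 14 CTCF lists alone, without RAD21: CBS5 at 74686497 within the spans of Hoxd10 and Hoxd11, CBS4 at 74691779 and CBS3 at 74694237 within that of Hoxd10, CBS2 at 74702390, 613 bp from the predicted gene Gm38462, and CBS1 at 74715933 within Hoxd3 and Hoxd3os1. A fold is the authors' enrichment of a peak summit over the local background of its own library. Because lists were called separately, folds were turned into percentiles among the 16710 sites found in all 5 lists, with 0 for no peak, before groups were compared.

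The promoter windows that hold a RAD21 position of the 5 lists are shown for orientation, as RefSeq gives them on GRCm38.p6 (250 bases before to 50 after a gene start, 5′ to 3′ on the gene's strand). Capitals mark 20 bases to each side of the RAD21 or CTCF position in the Hoxd10 window, chr2:74691641-74691940 on the plus strand, which spans CBS4, the peak that was kept. In the Hoxd1 window, chr2:74762730-74763029 on the plus strand, they mark the bases around a weak peak of 1 Del(CBS1-2) list. In the Hoxd3os1 window, chr2:74716081-74716380 on the minus strand, beside the mutated CBS1, they mark a match to the CTCF core letters.
Hoxd10: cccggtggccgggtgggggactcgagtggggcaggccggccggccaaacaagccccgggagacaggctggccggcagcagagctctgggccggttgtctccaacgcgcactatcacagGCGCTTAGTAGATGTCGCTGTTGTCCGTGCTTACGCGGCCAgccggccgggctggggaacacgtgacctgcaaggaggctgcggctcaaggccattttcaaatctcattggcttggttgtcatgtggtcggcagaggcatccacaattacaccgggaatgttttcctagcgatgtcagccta
Hoxd3os1: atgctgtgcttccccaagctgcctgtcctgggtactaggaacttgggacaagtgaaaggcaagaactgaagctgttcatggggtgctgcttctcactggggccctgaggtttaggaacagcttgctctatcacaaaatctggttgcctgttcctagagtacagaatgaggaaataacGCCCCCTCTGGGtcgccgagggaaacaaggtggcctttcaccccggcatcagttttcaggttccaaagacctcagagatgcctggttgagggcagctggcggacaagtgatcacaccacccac
Hoxd1: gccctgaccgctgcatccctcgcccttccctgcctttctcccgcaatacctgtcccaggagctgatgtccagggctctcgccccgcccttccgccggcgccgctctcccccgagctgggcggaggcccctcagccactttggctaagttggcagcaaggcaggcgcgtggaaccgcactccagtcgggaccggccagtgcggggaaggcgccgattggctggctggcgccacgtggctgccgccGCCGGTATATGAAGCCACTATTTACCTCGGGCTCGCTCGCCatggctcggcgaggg
The letters searched were CCNNNAGNNGGC on either strand, which overlap no other motif searched, and 8.61% of 32851 promoter windows held a match. Neither the Hoxd10 nor the Hoxd1 window held these letters. The match in the Hoxd3os1 window, GCCCCCTCTGGG, lay 20 bases from the weak RAD21 position at 74716217.

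At CBS2, the site mutated in this step, the Del(CBS1-2) lists had no RAD21 peak in replicate 1 and a fold of 2.48 in replicate 2, whereas the Del(CBS1) lists had folds of 12.2, 11.7 and 12.6. The −log10 q of the single Del(CBS1-2) peak was 3.66, against 36.98, 71.8 and 88.3 in Del(CBS1). Both Del(CBS1-2) values lay far below all 3 Del(CBS1) values. In percentiles, CBS2 stood at 0.054 ± 0.076 in Del(CBS1-2) (SD, n = 2) and at 78.8 ± 12.2 in Del(CBS1) (SD, n = 3), a difference of −78.7. The exact permutation test over all 10 splits gave a 2-sided p of 0.1, the smallest that 2 against 3 libraries allow, and 0.433 after Benjamini-Hochberg adjustment over the 13 positions examined. The Del(CBS2) list had no peak there. In WT the folds ran over 4 lists from 8.82 to 10.47. The difference was −91.6 with only the libraries that had peaks at over 100 tRNA genes, which leaves a single Del(CBS1) list.

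CBS2 was placed from the CTCF lists, so the CTCF values there describe the placement and are no further finding. The single CTCF list of Del(CBS1-2) had a fold of 2.96 at CBS2 with a −log10 q of 4.23, against folds of 16.7, 7.36 and 9.40 in the 3 CTCF lists of Del(CBS1). The CTCF list of Del(CBS2) had no peak there. With 1 CTCF list of Del(CBS1-2), this difference has no replicate check.

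As a description, the fall at CBS2 was set beside the 16813 sites with a peak in all 3 Del(CBS1) lists. The mean percentile fell by at least as much as at CBS2 in 1 of the 16813 sites, or 0.00595%. That site was the RAD21 position at CBS2 itself, whose median summit lies at 74702413. CBS2 entered this set through the Del(CBS1) lists, where it is high, so its place among these sites is no support. A limma fit over the 16 RAD21 libraries, with a missing peak as the lowest rank, was added after the data were seen because the fit planned for the ranks covers only sites found in every library. It covered 29716 sites with a peak in at least 3 of the 5 lists. The 3 Del(CBS1) lists alone can meet that rule and the 2 Del(CBS1-2) lists alone cannot, so sites that fell could enter and gained sites could not. At CBS2 the change was −3.22 ± 0.33 normal-score units (SE), with a limma adjusted p of 1.0e-06. With the class of tRNA gene peaks as a factor the change at CBS2 was −3.44 ± 0.36 (SE) and the limma adjusted p was 1.84e-06. CBS2 met the rule through the 3 Del(CBS1) lists, where it is high, so these limma p-values are description and no support.

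**Figure D2:**
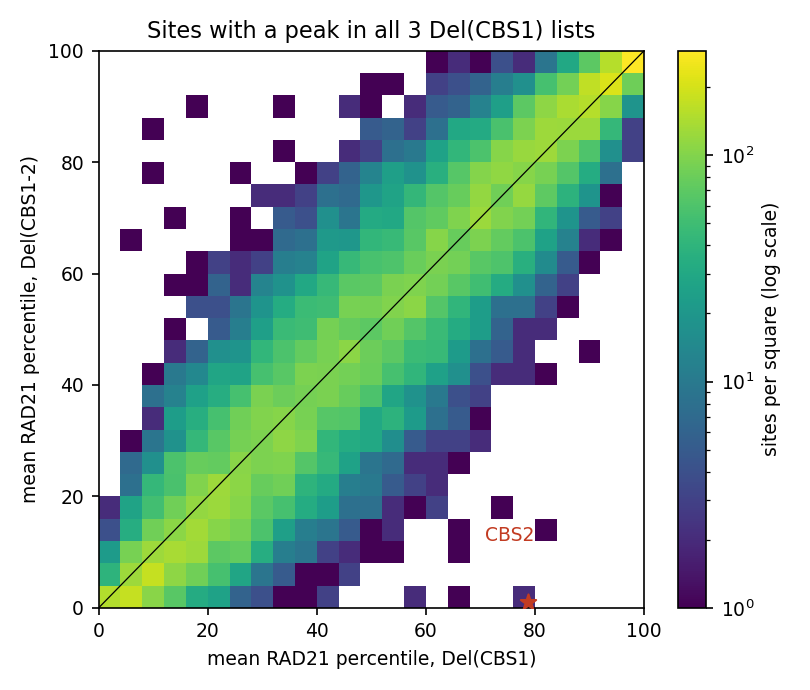
Mean RAD21 percentile in Del(CBS1-2) (vertical, 2 lists) against Del(CBS1) (horizontal, 3 lists) for sites with a peak in all 3 Del(CBS1) lists, counted in squares on a log colour scale, with the line of equal values. CBS2, marked by a star, lies at the bottom right, at 0.054 in Del(CBS1-2) and 78.8 in Del(CBS1).

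The neighbouring RAD21 peak at CBS4, over the Hoxd10 promoter window printed above, was kept. Its folds were 11.1 and 13.3 in Del(CBS1-2), against 12.7, 12.6 and 12.7 in Del(CBS1). The fold in Del(CBS2) was 15.5. The groups overlapped, and the percentiles were 84.3 ± 8.18 in Del(CBS1-2) (SD, n = 2) and 82.1 ± 9.80 in Del(CBS1) (SD, n = 3), with an exact permutation p of 0.7 (2-sided). The difference of 2.23 changed sign without Del(CBS1-2) replicate 2, to −3.55, without Del(CBS1) replicate 2, to −1.18, and with only the libraries that had many tRNA gene peaks, to −8.99. Hoxd10, a posterior Hoxd gene, is the gene whose span holds this site. The −log10 q of the peak was 155 and 193 in Del(CBS1-2), against 30.8, 74.4 and 76.7 in Del(CBS1). Those values depend on depth, which is unknown, and were compared only as percentiles in an alternative.

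CBS5, within the spans of Hoxd10 and Hoxd11, had weak RAD21 peaks. The folds were 5.47 and 4.64 in Del(CBS1-2), whereas in Del(CBS1) there was no peak in replicates 1 and 2 and a fold of 4.34 in replicate 3. Del(CBS2) had no peak there. The groups did not overlap, and the percentile was 10.3 ± 6.07 in Del(CBS1-2) (SD, n = 2) against 1.04 ± 1.81 in Del(CBS1) (SD, n = 3), with an exact permutation p of 0.1 (2-sided). The difference of 9.22 ranged from 3.50 to 43.5 over 11 alternatives, the lowest among sites of all 16 RAD21 libraries and the highest among all peaks of a library. Over the genome, the percentile was higher in both Del(CBS1-2) lists than in every Del(CBS1) list at 10.2% of the sites found in all 5 lists. CBS5 is not among those sites, as Del(CBS1) replicates 1 and 2 had no peak there. That share is therefore no like background for CBS5, where missing peaks make an absence of overlap easier. In the limma fit with a missing peak as the lowest rank, the change at CBS5 was 0.91 ± 0.41 (SE), with an adjusted p of 0.774.

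At CBS3 and at CBS1 none of the 5 lists had a RAD21 peak. CBS1 is mutated in both alleles. In Del(CBS2), where CBS1 is intact by the label, its RAD21 fold was 19.6. Beside CBS1, at 74716217, Del(CBS1-2) replicate 2 alone among the 5 lists had a RAD21 peak, a weak one with a fold of 3.18 and a −log10 q of 5.13. CTCF peaks reached over that position in all 4 CTCF lists of these alleles, with a fold of 7.58 in Del(CBS1-2) and of 7.37, 4.47 and 5.24 in Del(CBS1). Their summits lay 44 bp from it in Del(CBS1-2) and 140, 71 and 16 bp from it in Del(CBS1).

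The other weak peaks of the cluster also came from Del(CBS1-2) replicate 2 alone: at 74705952 within Gm38462 and Hoxd8 the fold was 2.71, at 74749865 within the long noncoding RNA gene Haglr 2.39, and at 74762994 within Hoxd1 2.96. Neither Del(CBS1-2) replicate 1 nor any Del(CBS1) list had a peak at these positions. The exact permutation p was 0.4 (2-sided) at each of them.

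On the centromeric side of the cluster, the RAD21 sites changed little. The peak at 74673084, 1481 bp from Hoxd13, the last gene of the array, had folds of 11.1 and 11.1 in Del(CBS1-2) and of 9.68, 14.4 and 12.2 in Del(CBS1), and the groups overlapped (exact permutation p of 0.8, 2-sided). At 74661956, within Gm31790, the folds were 9.32 and 8.997 in Del(CBS1-2) and 11.1, 10.1 and 8.60 in Del(CBS1) (exact permutation p of 1, 2-sided). The percentile difference at 74661956 was −2.46, and −30.5 with only the libraries that had many tRNA gene peaks. At 74663764, also within Gm31790, they were 4.55 and 5.35 in Del(CBS1-2), and in Del(CBS1) there was no peak in replicate 1 and folds of 5.57 and 5.44 in the other lists (exact permutation p of 0.6, 2-sided). The signs of the first and second of these differences changed with other settings.

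A position at 74673400, 1613 bp from Hoxd12, had percentiles of 78.4 and 73.7 in Del(CBS1-2) and of 0, 4.24 and 6.34 in Del(CBS1), with an exact permutation p of 0.1 (2-sided). The lists split the signal here into summits in different ways. In Del(CBS1-2) the wide peak near Hoxd13 covered the position with a summit 320 and 316 bp away, whereas in 2 Del(CBS1) lists a separate summit was called 31 and 32 bp away. When only a summit within 100 bp counted, the difference was −3.53.

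**Figure D3:**
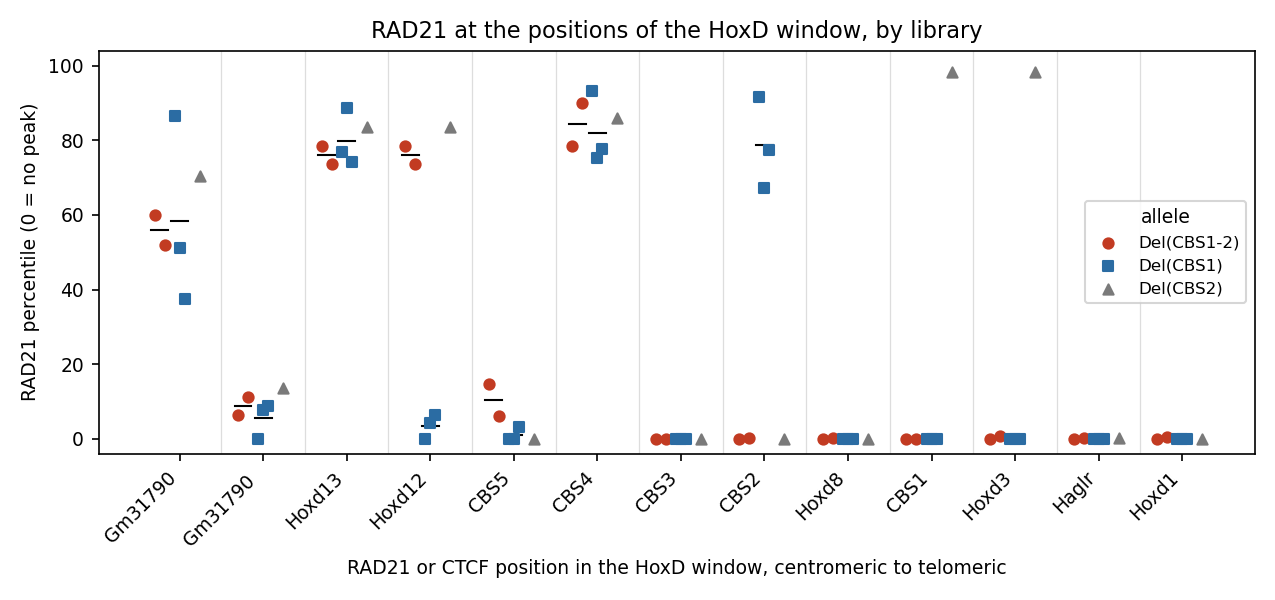
RAD21 percentile (vertical, 0 for no peak) at each position of the HoxD window from centromeric to telomeric, named by its CBS or nearest gene, with 1 point per library for Del(CBS1-2) (red circles), Del(CBS1) (blue squares) and Del(CBS2) (grey triangle), and a short line at the mean of replicated groups. At CBS2 the Del(CBS1-2) points lie at 0 and 0.108 and the Del(CBS1) points at 91.7, 67.3 and 77.3, while at CBS4 the groups overlap.

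The landscapes on either side of the cluster hold enhancers that act on Hoxd genes, among them those of the limbs. Neither held a lost site, one with a peak in 3 of 3 Del(CBS1) lists and 0 of 2 Del(CBS1-2) lists, in a genome where 0.036% of 55615 sites were lost, so nothing is read from that. The 13 RAD21 sites on the centromeric side had 1 gained site, in Atp5g3, and the 21 on the telomeric side had 1, in Mtx2. The gained peaks were weak, with folds of 2.55 and 3.06 in Del(CBS1-2) at Atp5g3 and of 4.34 and 3.13 in Del(CBS1-2) at Mtx2. Over the genome, 4.01% of 55615 sites were gained in the same sense, a peak in 2 of 2 Del(CBS1-2) lists and 0 of 3 Del(CBS1) lists. The median percentile difference over sites in all 5 lists was −1.19 on the centromeric side and 0.88 on the telomeric side, beside −0.10 over all sites.

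Within the landscapes the largest difference in percentile was at 75312391, in 2600014E21Rik and Gm39857 on the telomeric side, with folds of 8.86 and 7.91 in Del(CBS1-2) against 10.0, 11.6 and 10.9 in Del(CBS1). Its percentiles did not overlap between the groups, as at 10.7% of all sites found in all 5 lists in that direction. In the limma fit planned for the ranks its change was −0.68 ± 0.37 (SE), with an adjusted p of 0.999. On the same side, the site at 75588755 in Gm50595 had folds of 9.36 and 10.47 in Del(CBS1-2) and of 9.07, 12.97 and 12.03 in Del(CBS1). At 75055384, 6226 bp from Gm46748, the folds were 10.4 and 9.39 in Del(CBS1-2) and 6.90, 11.2 and 9.09 in Del(CBS1), a percentile difference of 12.7. On the centromeric side the largest difference, −13.1, was at 74300426 in 4930441J16Rik, with folds of 5.97 and 7.66 in Del(CBS1-2) and of 6.16, 8.67 and 9.66 in Del(CBS1). No site of either landscape was called by limma in either fit described below, and 1, in the fit with a missing peak as the lowest rank, had an unadjusted p under 0.05.

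**Figure D4:**
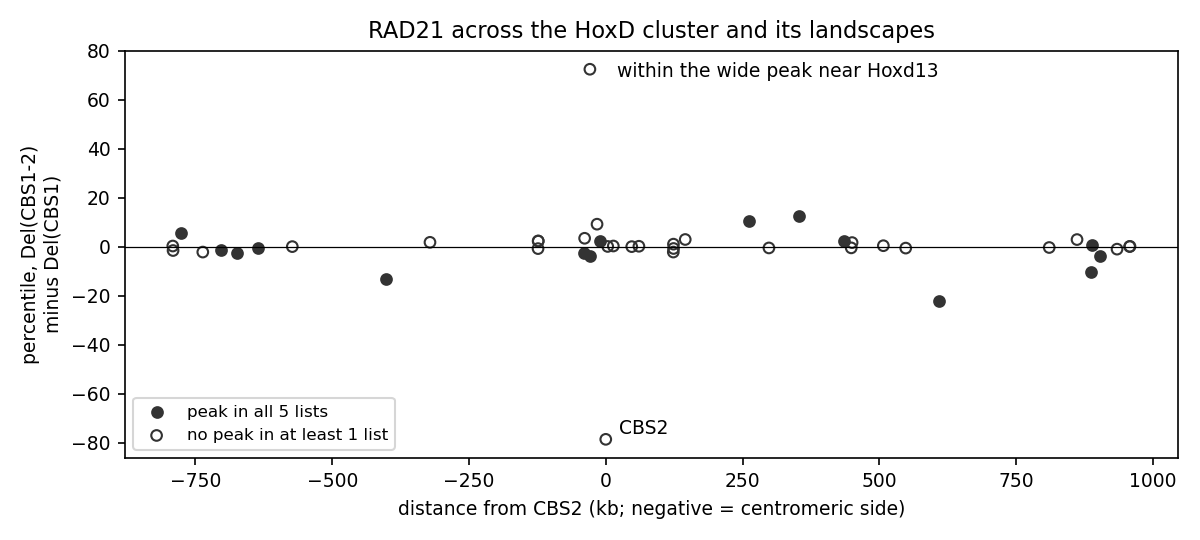
Difference in mean RAD21 percentile, Del(CBS1-2) minus Del(CBS1) (vertical), against distance from CBS2 in kb (horizontal, centromeric side negative), with filled points for sites with a peak in all 5 lists and open points for the others. CBS2 stands at −78.7, the position within the wide peak near Hoxd13 at 72.5, and the other points lie between −22.1 and 12.7.

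Genome-wide, RAD21 peaks disappeared from few sites. Of 55615 sites, 20 were lost (0.036%), with a peak in 3 of 3 Del(CBS1) lists and 0 of 2 Del(CBS1-2) lists. CBS2 was not counted among them, because of the weak peak of Del(CBS1-2) replicate 2. When peaks with a −log10 q under 10 were left out, 2 sites were lost, CBS2 and a site within Myo5b. Of the 20, 14 lay at a CTCF site found in all WT lists (70%, beside 98.3% of the sites found in all 5 lists and 59.2% of all sites). Only the 16813 sites with a peak in all 3 Del(CBS1) lists could be lost, so the share of 98.3% is the closer background. None was on chromosome 2. On the other chromosomes 20 of 51392 sites (0.0389%) were lost, so nothing is read from that. The count was 70 and 58 without Del(CBS1-2) replicates 1 and 2. It was 1111, 40 and 51 without Del(CBS1) replicates 1, 2 and 3, the first of them being the short list.

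The strongest lost site, 1649 bp from Ear10, an eosinophil-associated ribonuclease gene of a multigene family, had folds of 7.47, 12.3 and 11.6 in Del(CBS1), and 8.28 in Del(CBS2). At the lost site within Myo5b, which encodes a vesicle-transport myosin, the folds were 7.72, 9.85 and 6.58 in Del(CBS1), while the Del(CBS2) list showed no peak. At Tceal3, on the X chromosome, they were 6.42, 9.02 and 8.16 in Del(CBS1), and 11.04 in Del(CBS2). The other strong ones were near Gm14745, Tekt4, Mbnl1, Nckap5, Ear-ps10, Pdgfrl and Mtus2, with mean folds between 4.91 and 7.58 in Del(CBS1). Of the 20 lost sites, 18 had a peak in at least 1 WT list (90%, beside 99.99% of the sites found in all 5 lists and 72.4% of all sites). In the Del(CBS2) list 12 had a peak (60%, beside 98.8% of the sites found in all 5 lists and 68.6% of all sites). Reads at Ear10 and Ear-ps10 could come from near-identical copies, so these sites are uncertain.

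Gained sites were weak, in part because they were selected as not called in 3 lists. Their number is not set against that of the lost sites. A loss needs a peak in all 3 Del(CBS1) lists, the short one among them, and a gain in only 2 Del(CBS1-2) lists. The 2232 gained sites had a median of 3.29 for the mean fold in Del(CBS1-2), against 8.78 for the mean fold over all 5 lists at the sites they share. CTCF sites held 33.4% of the gained sites, beside 98.3% of the sites found in all 5 lists and 59.2% of all sites. Of the gained sites, 56 lay at tRNA genes (2.51%, beside 0.424% of all sites), and 58.3% also had a peak in the Del(CBS2) list. At these genes libraries of 1 genotype also differed, so the allele and the class of library cannot be told apart for them. With the same number of top peaks in each list, 232 sites were gained and 123 lost. The count of gained sites was 6713 and 6531 without Del(CBS1-2) replicates 1 and 2. It was 2460, 4550 and 3165 without Del(CBS1) replicates 1, 2 and 3. Without Del(CBS1) replicate 1, the short list, 1111 sites were lost.

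Among the strongest gained sites, one over n-THgtg1, a histidine tRNA gene within Gm10685, had folds of 10.6 and 10.7 in Del(CBS1-2) and 4.48 in Del(CBS2). A CTCF-bound site within Ralgapa2 had 9.45 and 11.2 in Del(CBS1-2) and 9.80 in Del(CBS2). Several others were uneven between the replicates: the site 2184 bp from Cd209g had 15.2 and 2.48 in Del(CBS1-2), and those in Six2, a kidney progenitor transcription factor gene, and Prex1 had 3.01 and 13.3, and 2.11 and 14.2. The remaining 5 were in Cacng4, Fcgr3, Skint11, Stard6 and the leucine tRNA gene n-TLtaa3. The Fcgr3 site also lies at a tRNA gene. Of these 10, 9 had a peak in the Del(CBS2) list or in at least 2 WT lists.

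Rank changes at sites found in every RAD21 library were few. Of 12982 such sites, limma called 3 (0.0231%), all higher in Del(CBS1-2), and 540 had an unadjusted p under 0.05. A site 4190 bp from Gm14245 had folds of 12.4 and 13.0 in Del(CBS1-2) against 4.08, 8.58 and 6.02 in Del(CBS1), a change of 2.47 ± 0.39 (SE) with a limma adjusted p of 0.00384. A site within Bub1b, a mitotic checkpoint kinase gene, had 11.7 and 10.7 in Del(CBS1-2) against 4.95, 5.64 and 3.55 in Del(CBS1), a change of 2.52 ± 0.43 (SE) with an adjusted p of 0.00759. The groups did not overlap at either site, as at 10.2% of the sites found in all 5 lists in that direction. The fit picked these sites, so the separation is no support. At Bub1b the 4 WT lists lay between the groups (7.75 to 9.36). The 6 lists of Del(CBS1-3) to Del(CBS1-5) ran from 4.41 to 14.2 at Bub1b and from 5.17 to 12.3 at Gm14245. Bub1b was not called without Del(CBS1) replicate 3 or with replicate number as a block (limma adjusted p of 0.0528). The third call, 5332 bp from the trace amine receptor gene Taar6, rests on Del(CBS1-2) summits 343 and 317 bp away and was not made when a value had to come from a summit within 150 bp. Without Del(CBS1-2) replicate 1 there was no call, with 284 sites at an unadjusted p under 0.05, and without replicate 2 the 1 call was at another site, near Gm24242. Near Gm24242 the value of Del(CBS1-2) replicate 1 came from a summit 366 bp away. With the tRNA class as a factor the 1 call was Gm14245.

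No site of this fit was called lower, and 230 of the lower sites had an unadjusted p under 0.05. The smallest p in that direction was at Atp8b4, a phospholipid flippase gene, with folds of 11.7 and 12.3 in Del(CBS1-2) against 15.4, 19.3 and 16.1 in Del(CBS1), and an adjusted p of 0.501. It was followed by sites near Cep85, a centrosome protein gene, and Tmem72, Ephb3 and n-TLaag8. At Cep85 the folds were 4.30 and 6.82 in Del(CBS1-2) against 16.01, 14.6 and 10.04 in Del(CBS1), with an adjusted p of 0.733. Cep85 was called lower when Del(CBS1) replicate 3 was left out. At n-TLaag8 the value of Del(CBS1-2) replicate 1 came from a summit 378 bp away. When only the 5 libraries entered the fit, 1 of 16710 sites was called, lower, within Clic4, a chloride channel family gene. Its folds were 3.88 and 3.09 in Del(CBS1-2) against 12.9, 11.7 and 12.2 in Del(CBS1), a change of −3.11 ± 0.39 (SE) with an adjusted p of 0.0241. Clic4 was not called in the limma fit over 16 libraries with a missing peak as the lowest rank. There its change was −2.34 ± 0.85 (SE), with an adjusted p of 0.752.

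The fit with a missing peak as the lowest rank called 9 of 29716 sites (0.0303%), 6 lower (0.0202%) and 3 higher (0.0101%), and 1819 had an unadjusted p under 0.05. Since Del(CBS1) lists alone could bring a site into this fit and Del(CBS1-2) lists alone could not, the balance of lower and higher calls is set in part by the filter, and nothing is read from it. Beside CBS2, the lower calls were the sites at Tceal3, Gm14745, Myo5b and Mtus2 from the lost group and a site within Gm39918. All of these could enter through the Del(CBS1) lists alone, so the lower calls describe them and are not taken as support. At Gm39918, Del(CBS1-2) had no peak in replicate 1 and a fold of 2.76 in replicate 2, against 4.63, 8.81 and 8.42 in Del(CBS1), with an adjusted p of 0.0388. The higher calls were Gm14245 and Bub1b again and a site within Sfi1, a centrosome gene, with folds of 14.4 and 12.2 in Del(CBS1-2) against 5.49, 7.84 and 9.33 in Del(CBS1). With the class of tRNA gene peaks as a factor, 5 calls were made, 4 lower (CBS2, Tceal3, Gm14745, Myo5b) and 1 higher (Gm14245).

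**Figure D5:**
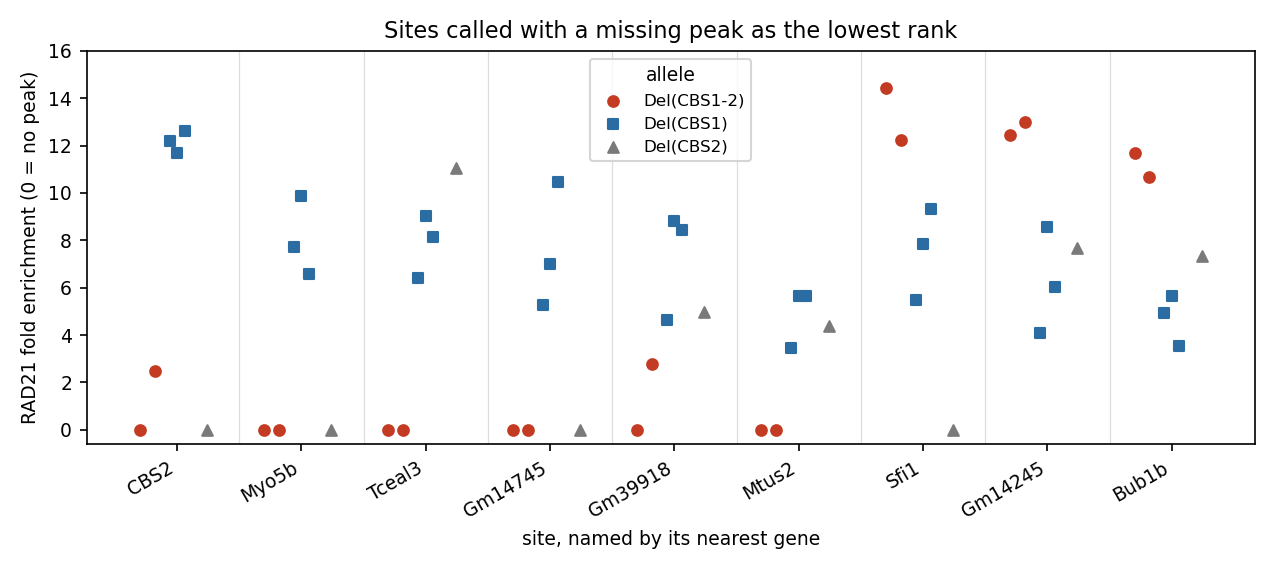
RAD21 fold enrichment (vertical, 0 for no peak) at the 9 sites called when a missing peak took the lowest rank, ordered by change, with 1 point per library for Del(CBS1-2) (red circles), Del(CBS1) (blue squares) and Del(CBS2) (grey triangle). At CBS2, Myo5b, Tceal3, Gm14745, Gm39918 and Mtus2 every Del(CBS1-2) point lies below every Del(CBS1) point, and at Sfi1, Gm14245 and Bub1b every Del(CBS1-2) point lies above. The sites were picked by this fit, and the lower ones could enter through Del(CBS1) alone, so the separation is no support.

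RAD21 sites near genes of other regulated loci gave no call in either limma fit. Of 8 sites at the other Hox clusters found in every library, 0 were called, 1 had an unadjusted p under 0.05, and the median change was −0.04 normal-score units, beside 0.00 over all sites. The site by Hoxc10 had folds of 14.7 and 15.7 in Del(CBS1-2) and of 13.4, 15.0 and 15.8 in Del(CBS1). The largest difference among the named Hox sites, at Hoxb8, was 8.77 and 10.49 in Del(CBS1-2) against 11.6, 13.8 and 12.6 in Del(CBS1), with an unadjusted limma p of 0.0251 and an adjusted p of 0.999.

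At the clustered protocadherins, cell-surface genes whose promoters are chosen through CTCF and cohesin, 3 sites entered the fit planned for the ranks. Of these, 0 were called and 0 had an unadjusted p under 0.05. In the fit with a missing peak as the lowest rank, 25 sites entered and 0 were called. There, 5 lower ones had an unadjusted p under 0.05, beside 1229 of 29716 over all sites. Del(CBS1) lists alone could bring a site into that fit, so nothing is read from the 5. A site at 37741982 on chromosome 18, in the Pcdhg cluster, had folds of 6.01 and 5.63 in Del(CBS1-2) against 12.7, 10.8 and 12.4 in Del(CBS1), with no overlap, as at 10.7% of the sites found in all 5 lists in that direction. In the fit with a missing peak as the lowest rank its change was −1.26, with an unadjusted p of 0.0047 and a limma adjusted p of 0.613. The neighbouring site at 37751552 had folds of 4.15 and 4.23 in Del(CBS1-2) against 6.13, 7.92 and 8.44 in Del(CBS1), also with no overlap. In the same limma fit its adjusted p was 0.788.

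Of 14 sites at imprinted domains found in every library, 0 were called and 1 had an unadjusted p under 0.05. The site at Snrpn and Snhg14 had folds of 10.7 and 10.8 in Del(CBS1-2) against 7.14, 7.02 and 10.2 in Del(CBS1), with an adjusted p of 0.999, and the site in Grb10, a growth inhibitor gene, had 11.1 and 11.3 in Del(CBS1-2) against 10.0, 10.9 and 11.1 in Del(CBS1). Near genes that mark the neural tube, 7 sites were in all 5 lists, with a lower mean percentile in Del(CBS1-2) at 7 of them and a median difference of −8.04. Over the genome 8441 of 16710 such sites were lower. In the fit planned for the ranks, 5 of these could be tested, and 0 were called or had an unadjusted p under 0.05. The strongest, in Sox2ot, had folds of 10.2 and 10.9 in Del(CBS1-2) against 9.55, 13.6 and 14.0 in Del(CBS1). The lists for blood, heart, endoderm with liver, limb with lateral plate, and somites with muscle had between 2 and 4 sites in all 5 lists. They gave 0 calls each in the fit planned for the ranks, and 0 of their sites had an unadjusted p under 0.05 there.

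The share of RAD21 peak intervals at a CTCF site found in all WT lists was 78.9% and 78.2% in Del(CBS1-2), against 96.5%, 77.3% and 84.3% in Del(CBS1). The highest share belonged to the shortest list, and the groups overlapped. The means were 78.5% ± 0.48 in Del(CBS1-2) (SD, n = 2) and 86.0% ± 9.73 in Del(CBS1) (SD, n = 3), a difference of −7.51 with an exact permutation p of 0.5 (2-sided). The sign turned with the same number of top peaks in each list, to 0.363, and with each genotype's own CTCF peaks, to 1.96. The difference was −2.26 without Del(CBS1) replicate 1, the short list, and −11.9 without Del(CBS1) replicate 2. It was −18.0 with only the libraries that had many tRNA gene peaks, where the short list alone stands for Del(CBS1).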

How the data were processed

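RAD21 ChIPmentation lists of Del(CBS1-2) (2) and Del(CBS1) (3) were compared. Each library has its own deposited peak list on mm10. The submitters' processing notes name MACS2 2.1.1.20160309, Bowtie2 2.3.5, bedtools 2.27.1, cutadapt 1.16, Picard 2.19.0 and SAMtools 1.9; their options are not given in the sources used here. The deposited values are, per peak, a ratio (fold enrichment) and the −log10 p and −log10 q of the caller; the lowest −log10 q was 1.30. Read counts are not in the lists, and depth is unknown.

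Summits of the 5 lists within 150 bp were linked into sites, and a list detected a site when a peak covered its median summit; its value is that of the nearest summit. CBS1 to CBS5 were assigned from the CTCF lists by the one-to-one match that left the fewest lists off pattern. The HoxD window ran 20 kb beyond Evx2 and Hoxd1, and a list gene has a site within 5 kb. Percentiles were compared by exact permutation over libraries; ranks of fold were turned into normal scores and fitted with limma 3.58.1 in R 4.3.3 (trend, robust, 1 coefficient per genotype, 16 libraries), at a Benjamini-Hochberg adjusted p of 0.05. Whether libraries are separate litters is not stated, so p-values measure the spread between libraries. The scripts were tested on simulated data. Python 3.11.15, pandas 2.3.3 and scipy 1.17.1 were used, and genes come from RefSeq spans on GRCm38.p6.

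Named were every HoxD position, up to 5 landscape sites a side, up to 10 limma calls a direction (with none, the 5 smallest p), the 10 strongest lost and gained sites, and up to 4 sites per gene list; Clic4, Gm24242, Gm39918 and Sfi1, and Myo5b where it is set beside CBS2, were named after their values were seen. The members, lists and tests were chosen with earlier results of these data known.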

Additional observations from a re-analysis of the deposited data

Results flagged for a closer look

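At 4 positions of the HoxD window 1 WT library lay far from the other 3 in RAD21 percentile, among 14 sets of 4 WT values tested. The usual rate of about 1 flag in 20 does not apply to these sets. Some hold zeros for lists without a peak, and the sets at 74673084 and 74673400 are the same values. Nothing is read from the number of flags. The WT percentile was 43.7 in the outlying library at 74673084 and likewise at 74673400, where the same wide peak near Hoxd13 gives the value. At CBS5 it was 5.99, and at 74762994 in Hoxd1 it was 0.623. These WT values entered none of the comparisons of Del(CBS1-2) with Del(CBS1) given above except through the spread that limma shares over libraries.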

How the results depend on the processing

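The percentile difference at CBS2 stayed negative under 11 alternatives, between −91.6 and −72.3, and at CBS5 it stayed positive under 11, between 3.50 and 43.5. Differences that turned sign were those at CBS4 (−8.99 with only libraries that had peaks at over 100 tRNA genes; −3.55 to 8.02 on leaving out a library), at 74661956 (2.72 with −log10 p, 3.01 among all peaks of a library; −12.9 to 11.6 on leaving out a library), at 74673084 (2.71 among all peaks; −6.63 to 0.558) and at 74673400 (−3.53 with a summit within 100 bp). The CTCF share difference turned to 1.96 with each genotype's own CTCF peaks and to 0.363 with equal numbers of top peaks, and was −11.9 to −2.26 on leaving out a library. The cause of these turns was not tested except at 74673400, where the alternative itself removes the distant summits.

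Lost sites numbered 40 with a summit within 100 bp, 2 at −log10 q of at least 10, 123 with equal numbers of top peaks, 336 with only libraries that had many tRNA gene peaks, and 40 to 1111 on leaving out a library. Gained sites numbered 901 at −log10 q of at least 10, 232 with equal numbers of top peaks, 14648 with only libraries that had many tRNA gene peaks, and 2460 to 6713 on leaving out a library. Fewer lists in a group make both counts larger by construction. Limma called 1 site with only the 5 libraries, 0 with equal numbers of top peaks (457 at an unadjusted p under 0.05), 1 with the tRNA class as a factor, 9 and 5 with a missing peak as the lowest rank without and with that factor, and 0 to 4 on leaving out a library. The alternatives on tRNA genes, on a summit within 150 bp and on missing peaks were chosen after seeing the data.

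No pairing by replicate number was seen: the deviations of same-numbered libraries correlated at 0.010 and 0.032, and the labels give no shared litter or day. The deviations of the 2 Del(CBS1-2) libraries are exact opposites, so this check cannot exclude a pairing. With replicate number as a block limma called 1 site, and the difference within numbers was −79.4 at CBS2 and −8.40 for the CTCF share.

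Unknown depth limits every absent peak to "not called", and 2 against 3 libraries cannot pass an exact test.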
